A study of Mus musculus with 94 samples.

Results

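Brain RNA of homozygous Hmgn3 mutant mice was compared with brain RNA of the wild types of the same line. The arrays were chosen by their labels as the 4 mutant brains of the Hmgn3 line and the 4 wild-type brains whose mouse numbers belong to that line, which made 8 of the 94 arrays of the series. Both groups were male mice of the C57BL/6N strain aged 17 weeks, and each array held total RNA of 1 mouse, so the groups differ in the labels by the Hmgn3 genotype alone. The labels call the mutants homozygous but do not describe the allele. The same 8 mice also gave liver, spleen and thymus, and 16 further brain arrays came from lines with a mutation in Hmgn1 or Hmgn5 and from their wild types. Each array measured 25697 probes, and 16071 to 16089 of them lay above the noise of an array in these 8 brains. The number of arrays limits the precision of what follows.

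HMGN proteins are small chromatin proteins that bind nucleosomes and compete there with linker histone H1. HMGN3 is known for its expression in glial cells of the brain, in endocrine tissue such as the pituitary and in insulin-producing beta cells, and human HMGN3 was first found as a protein that binds the thyroid hormone receptor. In mice its loss has been linked to impaired insulin secretion, and the glycine transporter gene Slc6a9 has been described as one of its target genes.

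All values are deposited intensities in linear units. A change is the mutant mean less the wild-type mean of log2(intensity + 16), given with its standard error (SE). Its p comes from limma with Benjamini-Hochberg adjustment over 19196 probes, and a probe is called below 0.05. Because 16 units are added, dim probes show smaller changes than their intensities do. A probe counts as above noise where it exceeds 1.64 times the root mean square of the negative values of its array.

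The array of mutant 4 stood apart from the rest. Its log2 values correlated with those of the other 7 arrays at r = 0.955 to 0.971, against 0.981 to 0.994 among those 7. It held 128 probes more than 1 log2 unit above all 7 others and 495 more than 1 unit below them, against at most 32 and 6 for any other array set against the remaining 6. Liver, spleen and thymus arrays of the same mouse did not stand apart: their median r with the other 7 arrays was 0.990, 0.979 and 0.981, and the other mice spanned 0.989 to 0.990, 0.972 to 0.982 and 0.972 to 0.984. Many results are therefore given with and without mutant 4. Elsewhere a change given once includes mutant 4, and its size without that array may be smaller or larger.

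The low probes of mutant 4 included defining genes of the cerebellum. Gabra6, a GABA receptor subunit of cerebellar granule cells, had 207, 295, 212 and 2.90 units in mutants 1 to 4, against 285, 154, 110 and 214 units in wild types 1 to 4. The Purkinje cell gene Pcp2 had 1755, 1842, 1735 and 261 units in the mutants, against 1899, 1808, 1422 and 1560 units in the wild types. Mutant 4 lay below every other array for both genes, and the remaining mutants overlapped the wild types. Summed over 11 cerebellar genes, the signal was 3014 units in mutant 4 and 9608 to 9846 in the other mutants, against 8387 to 11011 units in the wild types. Summed signals of some other regional lists were highest in mutant 4. Hippocampal genes had 2378 units, against at most 1866 on the other 7 arrays, and striatal genes 7291, against at most 6317. Olfactory bulb genes summed to 384 units, against at most 291, but their mean log2 level was 5.28, below 5.62 in wild type 1. Thalamic genes summed to 5845 units in mutant 4, within the other arrays, which reached 5958. In bulk tissue, fewer cells of a type and less RNA per cell cannot be told apart.

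Pituitary hormones marked 1 array of each group. Growth hormone (Gh) had 18428, 1.66, 581 and 5.75 units in mutants 1 to 4, against 471, 20774, 102 and 45.9 units in wild types 1 to 4. Prolactin (Prl) was likewise high in mutant 1, with 12992 units, and in wild type 2, with 10327 units, and at most 180 units elsewhere. The summed pituitary signal thus differed between arrays of a group far more than between the groups. In mutant 2, the muscle genes Myl1 and Acta1 reached 961 and 600 units, against at most 63.5 and 264 units on the other 7 arrays.

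**Figure D1:**
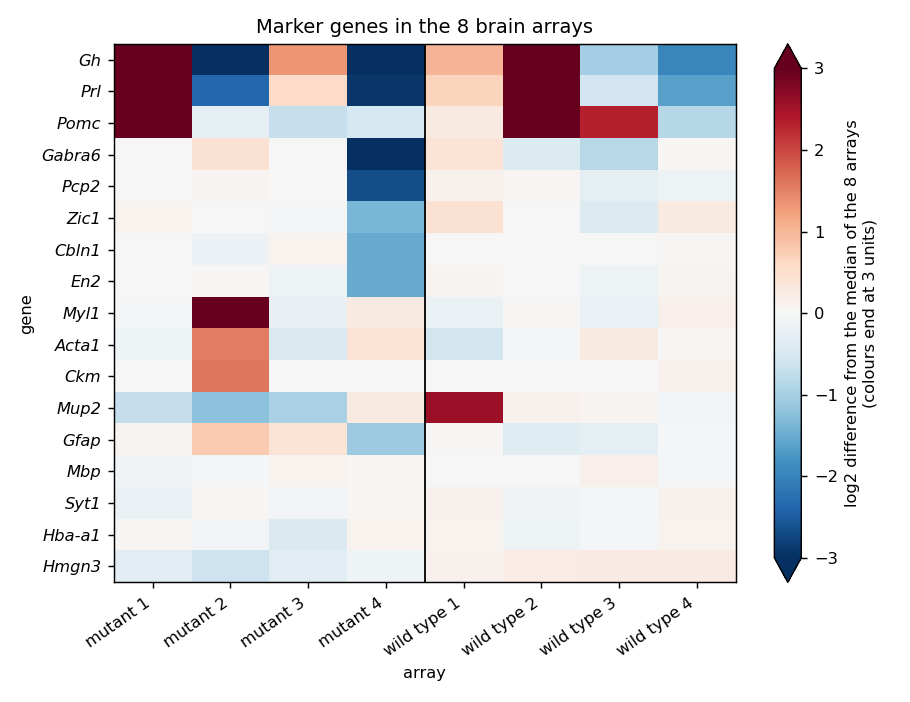
Each row is a gene and each column 1 of the 8 brain arrays, mutants left of wild types; colour gives the log2(intensity + 16) difference from the median of the 8 arrays and ends at 3 units. Pituitary genes stand out in mutant 1 and wild type 2, cerebellar genes are low in mutant 4, muscle genes are high in mutant 2, and Hmgn3 is lower in the 4 mutants.

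The neuronal genes Rbfox3, Syt1, Syn1 and Stmn2, the astrocyte genes Gfap and Aqp4, the myelin genes Mbp and Mog, the microglial genes Cx3cr1 and P2ry12 and the endothelial genes Pecam1 and Flt1 were above noise on all 8 arrays. Some other markers were not, among them the Snap25 probe, above noise on 1 array, and the Aspa probe of oligodendrocytes, above noise in 0 mutants and 1 wild type. The hepatocyte gene Alb was above noise on 0 of the 8 arrays.

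Hmgn3 signal fell in mutant brain but stayed well above noise. Where the 2 probes lie relative to the mutated part of the gene was not analysed here, so the remaining signal does not tell whether intact transcript remained. The gene lies on chromosome 9, from 83109942 to 83147358 on GRCm38.p6, and 2 probes report it. Probe ILMN_1247704 had 2062, 1678, 2090 and 2372 units in the mutants, against 2834, 3018, 3078 and 3057 units in the wild types. Probe ILMN_2644719 had 1762, 1549, 1773 and 1933 units in the mutants, against 2446, 2513, 2718 and 2692 units in the wild types. By both probes every mutant lay below every wild type, and the highest mutant was mutant 4.

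The mutant mean was 2051 ± 285 units, against 2997 ± 111 units in wild types (SD, n = 4 each), for ILMN_1247704. That is 68.4 percent of the wild-type mean, a log2 change of -0.55 (SE 0.0862, limma adjusted p = 0.0175). For ILMN_2644719 the mutant mean was 1754 ± 158 units, against 2592 ± 133 units in wild types, or 67.7 percent (log2 change -0.56, SE 0.0764, limma adjusted p = 0.00442). Without mutant 4 the changes were -0.63 and -0.61 (limma adjusted p = 0.00138 and 0.00130). Where only the 8 arrays entered the fit, the sizes were the same but neither probe passed (limma adjusted p = 0.929 for both). The exact permutation test over the 70 splits of the 8 arrays gave a two-sided p of 0.0286 for each probe, the smallest it can give.

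The 4 mutant brains were also the lowest of the series for Hmgn3. The other 20 brain arrays, wild types of this line among them, spanned 2834 to 4057 units for ILMN_1247704 and 2446 to 3611 units for ILMN_2644719. The wild types of the Hmgn3 line were in the lower part of that range: for ILMN_1247704 they averaged 2997 ± 111 units, against 3629 ± 87.8 units in wild types of the Hmgn1 line and 3595 ± 170 units in those of the Hmgn5 line (SD, n = 4 each). The lines were taken as normalized separately, so these levels are set side by side only as a description.

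The fall was smaller in brain than in spleen of the same mice. In spleen, ILMN_1247704 had 111 ± 15.7 units in mutants, against 395 ± 53.6 units in wild types, and ILMN_2644719 had 106 ± 1.79 units, against 405 ± 47.6 units (SD, n = 4 each). In thymus the values were 83.2 ± 12.4 units in mutants, against 260 ± 53.1 units in wild types, and 88.6 ± 7.35 units, against 271 ± 37.2 units. Groups did not overlap in either tissue. In liver both groups were dim, with means of 7.62 and 4.39 units in mutants, against 17.1 and 14.2 units in wild types.

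In a fit of all 32 arrays from these 8 mice, with mouse as a random block, the log2 change in brain minus that in spleen was 1.14 and 1.21 (limma adjusted p = 0.0250 and 0.00590). Against thymus it was 0.91 and 0.89 and did not pass (limma adjusted p = 0.132 and 0.0604). Against liver it was -0.05 and 0.01 (limma adjusted p = 0.974 and 0.996). In liver, however, the probes were above noise in only 2 and 1 of the 4 mutants, and the mutant means lay below the added 16 units. In wild-type liver both probes were above noise in all 4 mice, with means of 17.1 and 14.2 units, near the added 16. With a floor of 1 unit the brain minus liver values were 0.88 and 1.51 (limma adjusted p = 0.746 and 0.491). Over all probes tested, 0.0573 percent passed for brain minus spleen, 0.0417 percent for brain minus thymus and 0.0417 percent for brain minus liver. The difference from spleen lost its call when the 4 tissues were quantile-normalized together (1.13 and 1.20, limma adjusted p = 0.178 and 0.128) and with a floor of 1 unit in place of the offset (1.28 and 1.36, limma adjusted p = 0.418 and 0.547). For ILMN_1247704 it was also lost without the mouse of mutant 2 or 3 or of wild type 1, 3 or 4, with values from 1.06 to 1.18. ILMN_2644719 kept its call without each mouse.

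**Figure D2:**
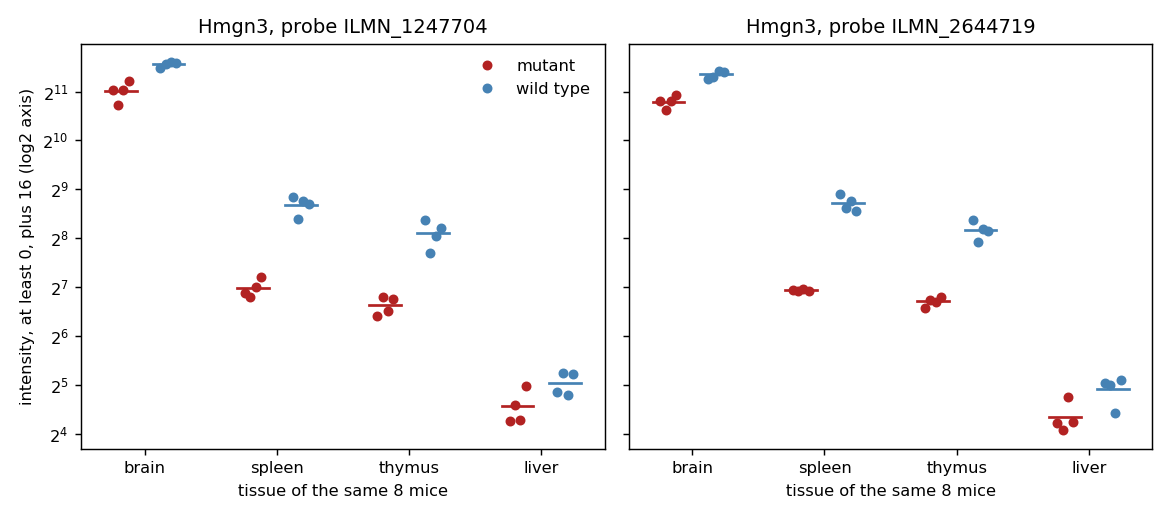
Intensity of both Hmgn3 probes in 4 tissues of the same 8 mice, plotted as intensity plus 16 on a log2 axis; points are arrays, mutants (red) left of wild types (blue), and lines are group means. In brain the probes reach 68.4 and 67.7 percent of the wild-type mean, and in spleen and thymus the groups lie further apart.

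Outside Hmgn3, 0 of the 19196 probes tested passed limma's adjusted threshold in brain. The 2 calls, both Hmgn3 and both lower, are 0.0104 percent of the probes tested. At an unadjusted p below 0.05, 2046 probes (10.7 percent) were listed, 974 higher (5.07 percent) and 1072 lower (5.58 percent) in mutants. A share of about 0.05 would be listed by chance if the spread were equal in all groups of the fit. The spread was pooled over the 6 brain groups, and far fewer probes were listed with only the 8 arrays, as given below. Whether the excess over the chance share belongs to the genotype was not tested. The groups did not overlap for 654 probes (3.41 percent), 277 with all mutants higher (1.44 percent) and 377 with all mutants lower (1.96 percent). The median log2 change over all probes tested was -0.02. Of these probes, 46.6 percent were higher in mutants, the share to set beside the counts of list members below. Leaving out mutant 4 gave 2 calls again, both Hmgn3, and 2134 probes at an unadjusted p below 0.05. Leaving out mutant 1 or mutant 3 gave 65 and 19 calls, leaving out mutant 2, wild type 1 or wild type 2 gave 5, 4 and 4, and leaving out wild type 3 or 4 gave 1. In the same fit the Hmgn1 line had 0 calls, with 743 probes at an unadjusted p below 0.05, and the Hmgn5 line had 4 calls, with 1718.

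**Figure D3:**
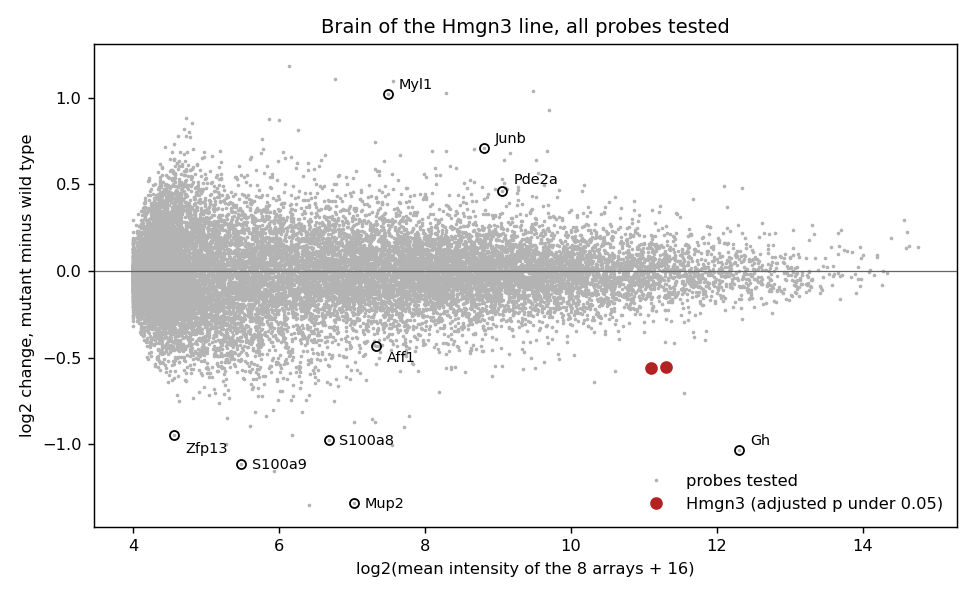
Each point is 1 of the 19196 probes tested, with log2(mean intensity of the 8 arrays + 16) on the horizontal axis and the log2 change, mutant minus wild type, on the vertical axis. The 2 Hmgn3 probes (red) are the only ones called; open circles name genes given in the text, which did not pass.

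Among genes that did not pass, the alarmins S100a9 and S100a8, calcium-binding proteins that neutrophils and monocytes store in large amounts, had the lower values in every mutant. S100a9 had 17.6, 8.76, 11 and 10.6 units in mutants, against 35.9, 31.4, 62.8 and 51.6 units in wild types. Its log2 change was -1.11 (SE 0.193, limma adjusted p = 0.0521), and -1.09 without mutant 4 (limma adjusted p = 0.105). It passed under 9 of 18 other settings, with adjusted p-values from 0.00832 to 0.964 and changes from -1.91 to -0.98. S100a8 had 57.6, 40.3, 72.9 and 40.0 units in mutants, against 87.5, 92.5, 171 and 130 units in wild types, a change of -0.97 (SE 0.247, limma adjusted p = 0.188). For both genes the groups did not overlap.

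Other neutrophil genes were dim in these brains. Ngp, a neutrophil granule protein, averaged 7.24 ± 2.01 units in mutants and 9.50 ± 6.76 units in wild types (SD, n = 4 each; log2 change -0.10, limma adjusted p = 0.921). The granule gene Camp changed by -0.39 (limma adjusted p = 0.504) and Lcn2 by -0.58 (limma adjusted p = 0.680), with 1 wild type at 128 units for Lcn2 and all other arrays at most 22.4 units. Red cell genes of blood overlapped: the summed signal of 4 erythroid genes was 8833 to 12924 units in mutants, against 10732 to 13223 units in wild types. The part of blood content in the S100a9 values was not tested. In the same mice, spleen S100a9 averaged 183 ± 33.0 units in mutants, against 264 ± 153 units in wild types, and thymus S100a9 14.8 ± 8.74 units, against 13.4 ± 5.95 units. The change of S100a9 did not pass the F test of brain against the other tissues (adjusted p = 0.266).

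Zfp13, a zinc finger gene on chromosome 17, was below noise in all 4 mutants, with 0.635, -3.97, 0.536 and 0.109 units, and above noise in all 4 wild types, with 8.81, 23.4, 18.4 and 13.0 units. It was at least 1.44-fold lower in mutants, with the noise limit in place of the mutant values (limma adjusted p = 0.0562). In brains of the other lines it averaged 22.2 and 25 units in Hmgn1 and Hmgn5 mutants, against 18.2 and 18.4 units in their wild types. Aff1, which encodes a scaffold of a transcription elongation complex, had 141, 120, 104 and 118 units in mutants, against 170, 181, 158 and 161 units in wild types (log2 change -0.43, SE 0.0876, limma adjusted p = 0.0998). Both genes separated the groups without reaching the threshold, and each passed under 4 of the 18 other settings (adjusted p from 9.5e-06 to 0.929 for Zfp13 and from 0.0151 to 0.964 for Aff1).

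Pde2a, a phosphodiesterase of cyclic AMP and cyclic GMP, was the brightest gene among the 10 higher ones of smallest p. It had 507, 594, 588 and 729 units in mutants, against 392, 396, 473 and 469 units in wild types, a log2 change of 0.46 (SE 0.102, limma adjusted p = 0.148). All mutants lay above all wild types, and without mutant 4 the change was 0.37. The others of the 10 were dim. Ccdc42, the lactate transporter gene Slc16a3, the GDP-fucose transporter gene Slc35c1, Tiprl, Gm14137, the homeobox gene Irx2, Zfp946 and Bfar were below noise in every wild type, and Mtrr, a methionine synthase reductase gene, was above noise in 2 wild types. Set against the noise limit of the wild types, the 8 genes below noise in every wild type were at least 1.05-fold (Gm14137) to at least 1.60-fold (Irx2) higher in mutants. Ccdc42, Slc35c1, Gm14137 and Bfar were each above noise in 3 mutants and entered the test only through those arrays. For them the filter itself favoured a higher level in mutants, so that direction adds nothing. A second Slc16a3 probe did not show the rise, with 8.89 units in mutants, against 9.02 units in wild types (log2 change -0.0021). Further probes higher at an unadjusted limma p below 0.05 were 0 of 1 for Irx2 and 0 of 2 for Bfar. They were 1 of 2 for Slc35c1 and 2 of 3 for Mtrr. The remaining lower genes of smallest p were 1700019D03Rik, the GPI-anchor gene Pgap2, the oestradiol-forming enzyme gene Hsd17b1, the anion channel subunit gene Lrrc8c, the ribosome biogenesis gene Las1l, the corticotropin-releasing hormone gene Crh and Synpo2l. Crh and Synpo2l were below noise in every mutant and at least 1.08-fold and 1.24-fold lower, and the other 5 had changes from -0.70 to -0.34. Of all 20, 5 were above noise on all 8 arrays, and adjusted p-values ran from 0.0521 to 0.158. The groups did not overlap for 19 of them, against 3.41 percent of all probes tested, which says nothing further because the 20 were picked by smallest p.

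**Figure D4:**
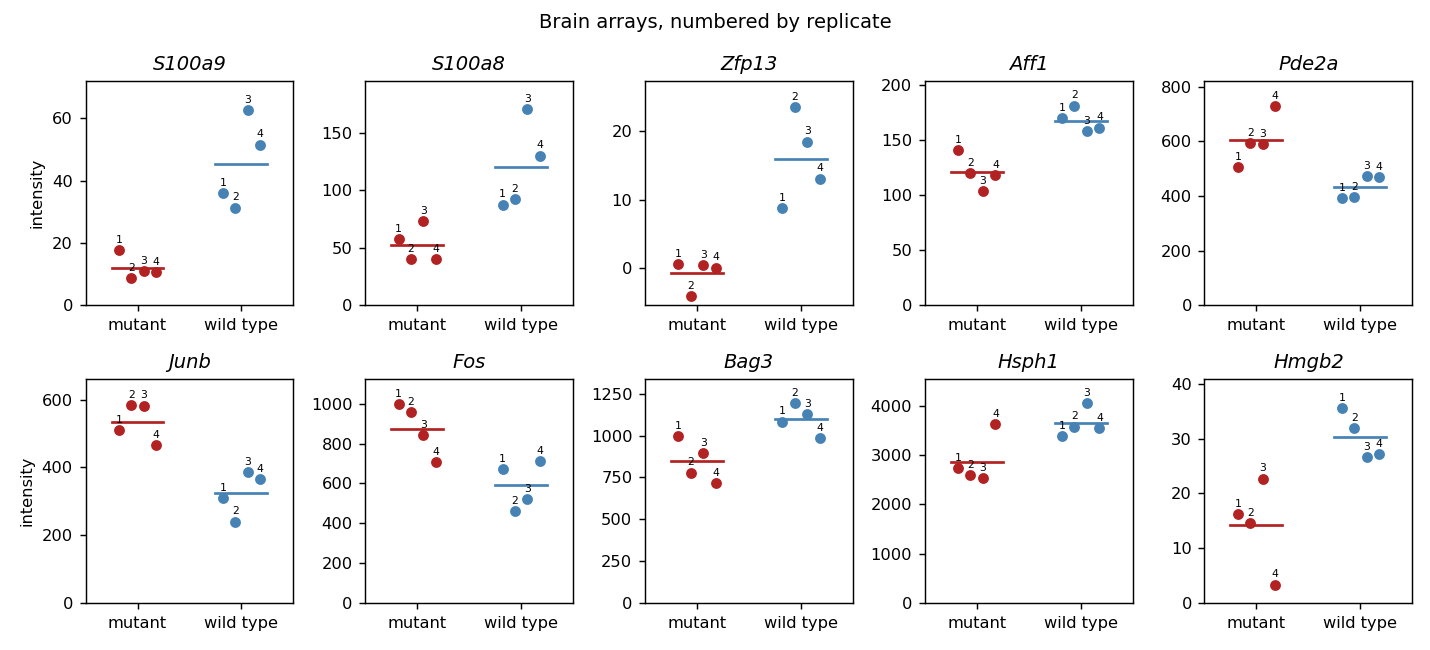
Intensity in each brain array, numbered by replicate, for 10 genes named in the text; mutants (red) stand left of wild types (blue) and lines are group means. The groups do not overlap for S100a9, S100a8, Zfp13, Aff1, Pde2a, Junb and Hmgb2 and overlap for Fos, Bag3 and Hsph1; none of the 10 passed the adjusted threshold.

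The other HMGN genes on the array did not pass. Hmgn1 averaged 2371 ± 177 units in mutants and 2441 ± 80.4 units in wild types (log2 change -0.04, SE 0.0710, limma adjusted p = 0.870). Hmgn2 averaged 2609 ± 130 units in mutants and 2608 ± 119 units in wild types (0.00, SE 0.0745, limma adjusted p = 1). Hmgn5 averaged 162 ± 77.7 units in mutants and 145 ± 34.4 units in wild types (0.05, SE 0.234, limma adjusted p = 0.962), and 0.38 without mutant 4. The standard errors leave less room for a change of Hmgn1 and Hmgn2 than of Hmgn5.

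Of 5 genes of other abundant chromatin proteins tested, 0 passed, 1 was higher and 4 were lower. Among the lower ones, the H1f3 probe was above noise in 0 mutants and 0 wild types, and the Hmgb1 probe in 0 mutants and 3 wild types. The DNA-bending protein gene Hmgb2 had 16.2, 14.5, 22.7 and 3.34 units in mutants, against 35.6, 31.9, 26.6 and 27.2 units in wild types (log2 change -0.66, SE 0.167, limma adjusted p = 0.188), and -0.46 without mutant 4. The groups did not overlap. The linker histone gene H1f10 had 405, 820, 604 and 232 units in mutants, against 385, 236, 335 and 383 units in wild types. Its change was 0.48 (limma adjusted p = 0.530), and 0.80 without mutant 4 (limma adjusted p = 0.210).

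Genes beside Hmgn3 were examined because a mutant allele is inherited together with its flanking chromosome. Within 3 Mb on either side the annotation holds 65 genes, 15 of them protein coding, and 11 probes of 8 genes were tested. 0 of the 11 passed, 6 were higher and 5 lower, and the median change was 0.01. Probe ILMN_3097107 of Lca5, a cilium gene, had 4.23 ± 2.89 units in mutants, against 13.3 ± 5.02 units in wild types (SD, n = 4 each), without overlap (log2 change -0.53, limma adjusted p = 0.342). A brighter Lca5 probe had 122 ± 15.3 units in mutants, against 110 ± 7.08 units in wild types (0.12, limma adjusted p = 0.726). The third Lca5 probe was at -0.25 (limma adjusted p = 0.652), and at -0.43 without mutant 4, so the 3 probes of the gene disagree in direction. Senp6, a SUMO protease gene, changed by 0.16 and 0.10 on 2 probes, and by 0.12 and -0.08 without mutant 4. Irak1bp1 changed by 0.33, the serotonin receptor gene Htr1b by 0.12, Tpbg by 0.01, Bckdhb by -0.04, the fatty acid elongase gene Elovl4 by -0.04 and Sh3bgrl2 by -0.08. Without mutant 4 the values were 0.04, 0.20, 0.06, 0.12, -0.28 and 0.05, in the same order. Irak1bp1 had 49.5 units in mutant 4 and at most 19.5 units on every other array.

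Slc6a9, the glycine transporter gene described as a target of HMGN3, had 1254, 1253, 1224 and 1778 units in mutants, against 1221, 1401, 1405 and 1246 units in wild types. The log2 change was 0.05 (SE 0.109, limma adjusted p = 0.918), and -0.08 without mutant 4. The 3 mutants other than mutant 4 lay within the range of the wild types.

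Among 17 thyroid hormone-responsive brain genes, 0 passed, 7 were higher and 10 were lower, with a median change of -0.04, against -0.02 over all probes tested. Without mutant 4, 12 of the 17 were higher and the median was 0.04. Sema7a, a membrane-anchored semaphorin gene, had 1011, 967, 946 and 849 units in mutants, against 1079, 1148, 1127 and 1150 units in wild types. All mutants lay below all wild types (log2 change -0.25, SE 0.0821, limma adjusted p = 0.286). Nrgn, a calmodulin-binding protein of dendrites, averaged 3385 ± 349 units in mutants and 2848 ± 68.2 units in wild types (SD, n = 4 each), with all mutants higher (0.24, SE 0.109, limma adjusted p = 0.437).

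Of 23 immediate early genes, which neurons induce within minutes of stimulation, 0 passed, 14 were higher and 9 were lower, with a median change of 0.09, also without mutant 4. Junb, an AP-1 subunit, had 511, 585, 582 and 465 units in mutants, against 310, 240, 387 and 365 units in wild types. All mutants lay above all wild types (log2 change 0.71, SE 0.209, limma adjusted p = 0.255). Fos had 996, 958, 842 and 706 units in mutants, against 672, 460, 520 and 712 units in wild types (0.56, SE 0.214, limma adjusted p = 0.359). Mutant 4 alone overlapped the wild types for Fos. Npas4 changed by 0.38 (limma adjusted p = 0.464).

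Of 14 heat shock chaperone genes, 0 passed, 2 were higher and 12 were lower, with a median change of -0.14, and -0.13 without mutant 4. Over all probes tested, 46.6 percent were higher. The summed signal of the list overlapped, at 34747 to 37318 units in mutants, against 32776 to 38264 units in wild types. The co-chaperone gene Bag3 had 998, 778, 897 and 718 units in mutants, against 1084, 1194, 1129 and 984 units in wild types (log2 change -0.37, SE 0.107, limma adjusted p = 0.229). Hsph1, of the HSP110 family, had 2734, 2601, 2529 and 3629 units in mutants, against 3385, 3584, 4065 and 3554 units in wild types (-0.35, SE 0.106, limma adjusted p = 0.259). For Hsph1 mutants 1 to 3 lay below all wild types and mutant 4 above 3 of them, and the change was -0.47 without mutant 4 (limma adjusted p = 0.105). The inducible HSP70 gene Hspa1a changed by -0.31 (limma adjusted p = 0.453).

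Lists of brain cell types held 0 calls outside Hmgn3. Of 11 microglial genes 8 were higher and 3 lower, with a median change of 0.16 and 0.12 without mutant 4. Tmem119, Aif1 and Siglech changed by 0.34, 0.40 and 0.30, and by 0.15, 0.20 and 0.20 without mutant 4, which was the highest of the 8 arrays for each. The complement gene C1qa went the other way, with -0.27 (limma adjusted p = 0.444) and -0.33 without mutant 4, as did the adaptor gene Tyrobp, with -0.17 and -0.27. Of 13 neuronal genes 8 were higher and 5 lower (median 0.04, and 0.10 without mutant 4). Camk2a, a synaptic kinase gene, had the smallest p of them (0.22, limma adjusted p = 0.441). Map2 and Gap43 were each at 0.20 and Stmn2 at -0.16. Slc17a7, a vesicular glutamate transporter gene of excitatory neurons, had the largest change, 0.48, and 0.87 without mutant 4 (limma adjusted p = 0.215). Of 6 genes of oligodendrocyte precursors 5 were higher (median 0.20), among them Cspg4 at 0.19 and Pdgfra at 0.20, and Gpr17 was at -0.19. The median was 0.07 for astrocytes, -0.03 for myelin and -0.06 for endothelium, and 0.11, 0.04 and -0.10 without mutant 4, against -0.02 over all probes tested.

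Region and receptor lists moved with mutant 4. The median of 11 cerebellar genes was -0.40, with 10 lower and 1 higher, and -0.03 without mutant 4, with 5 higher. Cbln1 and En2, both strongly expressed in cerebellum, changed by -0.40 and -0.41 with mutant 4 and by -0.03 and -0.04 without it, and Slc1a6, a Purkinje cell glutamate transporter gene, by -0.45 and -0.19. Among 8 GABA receptor genes the median was -0.22, and 0.06 without mutant 4. Gabra3 had 149, 150, 148 and 41.5 units in mutants, against 174, 172, 161 and 163 units in wild types, so that the other mutants also lay below all wild types and the change was -0.53 with mutant 4 and -0.16 without it. Gabrb1 changed by -0.28 and -0.08, and Gabrg1 by 0.21 and 0.20. For 7 pituitary genes the median was -0.22, and 0.29 without mutant 4.

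**Figure D5:**
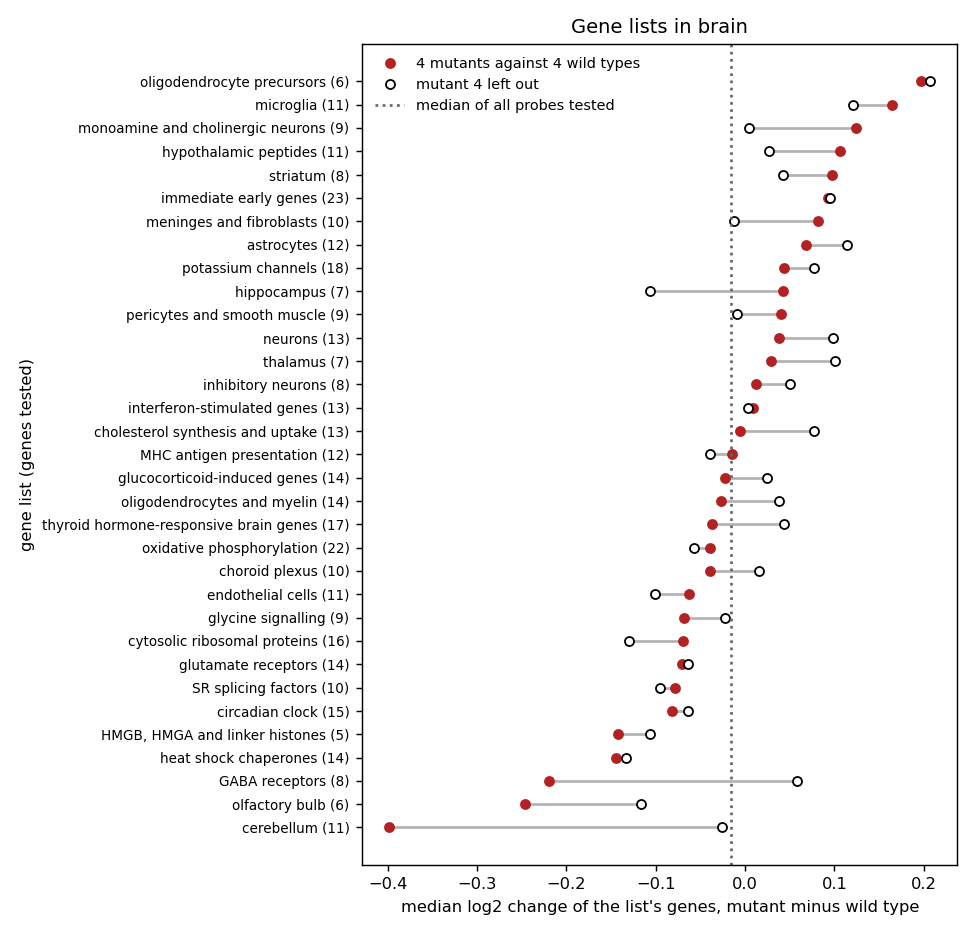
Median log2 change, mutant minus wild type, of the genes of each list with at least 5 genes tested (pituitary list left out), with all 8 arrays (red) and without mutant 4 (open circles); the dotted line is the median of all probes tested. The cerebellar and GABA receptor lists shift most, by -0.40 against -0.03 and by -0.22 against 0.06, while the heat shock and immediate early lists hardly shift.

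Among the 5 largest rises and 5 largest falls of probes above noise on all 8 arrays, S100a9 and S100a8 alone separated the groups, and several of the others turned on 1 array. Tnfrsf10b, a death receptor gene, had 36.3, 114, 56.8 and 369 units in mutants, against 22.2, 58.7, 58.9 and 25.2 units in wild types (log2 change 1.11, limma adjusted p = 0.342). One Actb probe had 3030 units in mutant 4 and 158 to 699 units elsewhere (1.04), Matr3 had 7.33 units in mutant 4 and 135 to 304 elsewhere (-0.90), and the chaperonin gene Tcp1 had 7.91 units in mutant 4 and 83.9 to 164 elsewhere (-0.87). Without mutant 4 these became 0.54, 0.28, -0.09 and -0.26. Further Actb probes differed in this. ILMN_2846865, ILMN_1377923 and ILMN_2698799 were also highest in mutant 4, with 3426, 12508.5 and 5630 units, against at most 820, 8813 and 5142 units elsewhere. ILMN_2617433 had 782 units in mutant 4 and 775 to 1404 units elsewhere. Mup2, a urinary protein gene, reached 509 units in wild type 1 and at most 90.7 units elsewhere (-1.34, limma adjusted p = 0.529). The lymphoid chemokine genes Ccl21b and Ccl21a changed by 1.09 and 1.03 with overlapping groups, and by 0.91 and 0.88 without mutant 4, and Myl1 changed by 1.02.

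Across the 4 tissues of the same mice, 21 of 19196 probes (0.109 percent) passed an F test of whether the change in brain differed from that in at least 1 of the other tissues (adjusted p below 0.05), and 2104 (11 percent) did at an unadjusted p. Single contrasts of brain with a tissue need not pass for these probes. Both Hmgn3 probes were among them (adjusted p = 0.00165 and 0.00768), with Fabp3, Fcgr4, Zfp13, Snx2 and Crh. Zfp13 was below noise in all 4 mutant brains and on most liver, spleen and thymus arrays of both groups, so the size of its difference between tissues is not given. Crh was above noise in the 4 wild-type brains only, and Fcgr4 in 0 mutant and 3 wild-type brains, so their sizes are not given either. For the fatty acid-binding protein gene Fabp3 the brain change lay 1.35 below that in thymus (contrast -1.35, limma adjusted p = 0.0213), while brain minus liver and brain minus spleen were 0.08 and 0.11. The Fabp3 probe was above noise in 0 mutants and 0 wild types in liver, and in 0 mutants and 1 wild type in spleen. Its contrasts with liver and spleen thus set brain beside undetected signal. For Snx2, an endosomal sorting gene, the brain change exceeded that in spleen by 1.16, a contrast that did not pass alone (limma adjusted p = 0.0636). Without the mouse of mutant 4, 3 probes remained, both of Hmgn3 and that of Fabp3.

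Against the mean change of the Hmgn1 and Hmgn5 lines, which have their own wild types, 4 of 19196 probes (0.0208 percent) differed in brain. Both Hmgn3 probes did, by -0.64 and -0.53 (limma adjusted p = 0.0432 and 0.0468). S100a9 differed by -1.38 (SE 0.236, limma adjusted p = 0.0468): it averaged 12 ± 3.88 units in Hmgn3 mutants, against 45.4 ± 14.5 units in their wild types. In the Hmgn1 line it averaged 44.5 ± 4.18 units in mutants, against 40.8 ± 21.2 units in wild types, and in the Hmgn5 line 62.6 ± 13.3 units, against 44.5 ± 5.44 units (SD, n = 4 each). Without mutant 4 the S100a9 difference was -1.36 and no longer passed (limma adjusted p = 0.0802). Mpp1 differed by -0.67 (limma adjusted p = 0.0432), with changes of -0.19 in the Hmgn3 line, 0.00 in the Hmgn1 line and 0.97 in the Hmgn5 line. Zfp13 (-1.16, limma adjusted p = 0.0790) did not pass.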

How the data were processed

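Total RNA was hybridised to Illumina arrays as biotin-labelled cRNA, per the labels' protocols. The software was GenomeStudio 2011.1, per the submitters' processing notes. The values used were the deposited probe intensities on a linear scale. Of their values on the 8 brain arrays 19.2 percent lay below 0, so background had been subtracted, and the array medians lay between 17.2 and 17.3 units. How the authors normalized them is not stated in any label or header read here. Quantiles were shared within a line and tissue, so those sets were taken as normalized apart. A raw table was not used, because its 188 columns match no label.

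Members, gene lists (39, with 521 genes) and tests were chosen with earlier results of these data known. Values were raised to at least 0, 16 was added and log2 taken. A probe was tested when above 1.64 times the noise on 3 or more of the 24 brain arrays. limma 3.58.1 in R 4.3.3 fitted 6 brain groups (mutant and wild type of 3 lines) together. Tissue differences came from all 32 arrays of these 8 mice, mouse being a random block, and line differences a contrast in the brain fit. All tests were two-sided, and p-values were adjusted by the Benjamini-Hochberg method over all probes tested. Lists use 1 probe per gene, that of highest mean signal, and are described without a test. Of the array's probes, GEO's platform annotation gives 1 symbol to 23978, several to 0 and none to 1719, and 23962 matched RefSeq (GRCm38.p6) by Entrez identifier.

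Named genes were all HMGN genes, the genes within 3 Mb of Hmgn3, the 10 higher and 10 lower genes of smallest p, the 5 largest rises and falls among probes above noise on all 8 arrays, up to 4 members of smallest p per described list, and the 5 of smallest p for tissue and for line. Region, muscle and neutrophil genes beside them were chosen after their values were seen.

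The fit was tested on simulated brain data. With 200 of 19196 probes changed, the calls found 60 percent of the log2 changes of 0.5 and 92 percent of those of 1, and 11 of the 163 calls made were wrong. The simulated noise was normal and independent between probes and arrays, and changes were placed only in probes above noise on all 8 arrays. Arrays that stand apart and changes in dim probes were not simulated, so these rates do not cover them. Alternatives were a floor of 1, no filter and a stricter filter (2.33 times the noise on at least 12 arrays), only the 8 arrays, array weights, an intensity trend, the replicate number as a block or as a linear term, common quantile normalization, leaving out each array or mouse and, added after the data were seen, leaving out both arrays with pituitary signal.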

Additional observations from a re-analysis of the deposited data

Results flagged for a closer look

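Some values stood far from the others of their group of 4, measured as the gap to the nearest array divided by the range of the group on the log2 scale. Of 238 groups of 4 examined, 16 showed such a gap, a share not far above the about 5 percent that chance gives. The groups are not independent, and their genes and lists were chosen with earlier results known. Single gaps are therefore listed as a description only. Of the 16, 13 were in mutants, and in 8 of those mutant 4 was the array apart.

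Mutant 4 was apart for Zfp946 (gap over range 0.964), Irak1bp1 (0.881), Gabra3 (0.987), Gabrb1 (0.837), En2 (0.884) and Slc6a9 (0.934, which also stands for the list of reported HMGN3-linked genes, 0.934), and for the mean of the cerebellar list (0.887). Mutant 2 was apart for Myl1 (0.883), Crh (0.871) and Hmgn2 (0.849), and mutant 1 for Pomc (0.909) and Fcgr4 (0.966). Among wild types, wild type 1 was apart for Mup2 (0.918), wild type 4 for Hmgn1 (0.857) and wild type 3 for Gabrg1 (0.866).

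Changes that differed between groups were those of Hmgn3 in brain minus spleen, 1.14 and 1.21 on its 2 probes, and the differences of the Hmgn3 line from the mean of the other 2 lines. The line differences were -0.64 and -0.53 for Hmgn3, -1.38 for S100a9 and -0.67 for Mpp1. The causes of these patterns were not tested.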

How the results depend on the processing

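The main number of probes called in brain was 2. The count was 18 with a floor of 1, 16 without a filter, 4 with a stricter filter, 27 with common quantile normalization, 17 without both arrays with pituitary signal, 1 with the replicate number as a linear term, 0 with only the 8 arrays and 0 with the replicate number as a block. With the 8 arrays alone 944 probes had an unadjusted p below 0.05, and with the block 1842, against 2046 of 19196 in the main fit. Leaving out single arrays gave 1 to 65 calls. No cause was tested.

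ILMN_1247704 of Hmgn3 kept its direction but lost its limma call with only the 8 arrays (-0.55, adjusted p = 0.929), the block (-0.55, 0.266) and the linear term (-0.64, 0.374), and ranged from -0.63 to -0.46 on leaving out an array, losing the call without wild type 3 (0.0648) or 4 (0.0953). ILMN_2644719 lost it with the 8 arrays (-0.56, 0.929) and the block (-0.56, 0.244). Replicate numbers did not pair the samples: same-numbered mutants and wild types deviated with r of 0.083, -0.25, -0.055 and -0.15, and 0 of the 4 pairs correlated best with its own number.

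The count of line differences was 4, and 10 with the floor and 11 with common normalization. The count of tissue differences was 21, 10 with common normalization and 2 to 43 on leaving out a mouse. Brain minus spleen for Hmgn3 was 1.28 and 1.36 with the floor, 1.13 and 1.20 with common normalization, and 1.06 to 1.24 (ILMN_1247704) on leaving out a mouse. Brain minus liver turned to 0.88 with the floor and 0.18 with common normalization for ILMN_1247704, and ranged from -0.15 to 0.066 and from -0.070 to 0.18 on leaving out a mouse.

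Direction turned for genes that passed under no setting. With array weights these were Hmgn1 (0.0032), Senp6 ILMN_2714855 (-0.034), Sh3bgrl2 (0.015), Bckdhb (0.010), Pomc (0.21), Gh (1.64), Prl (1.69), Slc6a9 (-0.039) and Snx2 (0.038). With the linear term they were Hmgn1 (0.025), Senp6 (-0.086 and -0.17), Sh3bgrl2 (0.012), Bckdhb (0.26), Pomc (3.29), Gh (6.17), Prl (6.64), Slc6a9 (-0.020) and Fabp3 (-0.11). Hmgn2 turned with common normalization (-0.0015) and without the pituitary arrays (-0.035), as did Tpbg without those arrays (-0.018). On leaving out single arrays, Hmgn5 ranged from -0.18 to 0.38, Hmgn1 from -0.076 to 0.0069, Hmgn2 from -0.018 to 0.036, Senp6 ILMN_2714855 from -0.078 to 0.20, Sh3bgrl2 from -0.16 to 0.061, Elovl4 from -0.28 to 0.14, Bckdhb from -0.19 to 0.12, Tpbg from -0.049 to 0.064, Pomc from -2.13 to 0.044, Gh from -3.09 to 0.74, Prl from -2.77 to 1.03, Slc6a9 from -0.080 to 0.10, Fabp3 from -0.00039 to 0.14 and Snx2 from -0.17 to 0.051. Dim probes near the noise limit have the least certain sizes.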

Other observations

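Leaving out mutant 1 gave the highest count, 65 calls of which 32 were higher in mutants and 35 were above noise on all 8 arrays. Both Hmgn3 probes and S100a9 were among them. The genes below were chosen after their values were seen. Swt1 had 377, 247, 261 and 248 units in mutants 1 to 4, against 375, 416, 357 and 392 units in wild types. The histone gene H4c8 had 231, 137, 164 and 152 units in mutants, against 255, 252, 280 and 214 units in wild types. The glycosyltransferase gene Glt8d1 had 487, 342, 327 and 289 units in mutants, against 548, 482, 489 and 459 units in wild types. For each of the 3 genes mutant 1 lay within the wild types, and the other 3 mutants lay below all of them. With all 8 arrays these genes had log2 changes of -0.44, -0.53 and -0.46 and limma adjusted p-values of 0.173, 0.158 and 0.188. Further probes of Swt1 (0.00, limma adjusted p = 0.975) and of Glt8d1 (-0.16 and 0.01, limma adjusted p = 0.560 and 0.988) did not show these changes.

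The metabotropic glutamate receptor gene Grm8 had 74.7, 75.2, 70.5 and 59.1 units in mutants, against 129, 63.8, 116 and 125 units in wild types. Wild type 2, which carried pituitary signal, was the only wild type in the range of the mutants. Without mutant 1 and wild type 2 the change of Grm8 was -0.73 (limma adjusted p = 0.00783), against -0.50 (0.210) with all 8 arrays.

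Serpina3n, an acute-phase gene of reactive astrocytes, fell into high and low arrays that crossed the groups: 231, 271, 1323 and 1740 units in mutants, against 226, 1398, 284 and 260 units in wild types.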
